A study of Mus musculus with 2 samples.

Results

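10 genes of macrophage scavenger and uptake receptors were followed in single leukocytes of mouse melanomas: Mrc1, Cd163, Stab1, Folr2, Lyve1, Msr1, Cd36, Axl, Mertk and Timd4. They were chosen by name, with earlier results of these data known. All 10 of 10 were among the 31053 genes listed and were detected in both libraries. The cells were 9798 that passed limits of 500 to 15000 unique molecular identifiers (UMIs, each standing for 1 captured transcript), 200 to 4000 genes and at most 10% mitochondrial UMIs. Members were described in the monocyte, macrophage and dendritic clusters among these cells.

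The samples were leukocytes positive for CD45 that were sorted as live cells from tumors 4 days after C57BL/6 hosts, 8 weeks old, had been injected with melanoma cells. The sample titles and the series design name these tumors as knockouts of Ptgs, the genes of the cyclooxygenases that make prostaglandins, in both groups (made by genome editing, per the study), whereas the genotype label of both samples reads wild-type tumor cells, and this conflict was left as it stands. Control hosts were untreated, and NK cell-depleted hosts received 200 µg of anti-NK1.1 (clone PK136) with 30 µg of antibody against asialo GM1 on day 0 and on day 2. Tumors were pooled into 1 library per group, and parental Braf-mutant melanoma cells were added to both sorted samples. With 1 library a group there was no replicate and no test between hosts. Every interval below covers counting error alone, except where the spread between cells is named.

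These receptors take material up from outside the cell. Scavenger receptors such as MSR1 and CD36 bind modified lipoproteins, lipids and microbes, MRC1 binds mannose-bearing glycoproteins and collagen fragments, CD163 clears hemoglobin bound to haptoglobin, STAB1 and LYVE1 bind ligands that include hyaluronan or matrix products, and FOLR2 binds folate. AXL and MERTK are receptor tyrosine kinases that recognise dying cells through the bridging proteins GAS6 and PROS1, and TIM-4, the product of Timd4, binds phosphatidylserine on such cells directly. In many tissues Lyve1, Folr2, Timd4 and Cd163 mark macrophages that reside there, as distinct from cells newly made from blood monocytes.

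For Mrc1, Stab1 and Folr2, whose levels were highest in clusters 1 or 3 (described next), the window from 250 bases before to 50 after the start of transcription is shown (RefSeq, build GRCm38.p6, 5′ to 3′ along the gene's own strand). Capitals mark GAGGAA, the core bound by the macrophage factor PU.1, or TGCTGA, a core element bound by MAF factors, each on either strand. The Mrc1 window lies at chr2:14229164-14229463 on the plus strand, that of Stab1 at chr14:31168592-31168891 on the minus strand, and that of Folr2 at chr7:101857141-101857440 on the minus strand.
Mrc1: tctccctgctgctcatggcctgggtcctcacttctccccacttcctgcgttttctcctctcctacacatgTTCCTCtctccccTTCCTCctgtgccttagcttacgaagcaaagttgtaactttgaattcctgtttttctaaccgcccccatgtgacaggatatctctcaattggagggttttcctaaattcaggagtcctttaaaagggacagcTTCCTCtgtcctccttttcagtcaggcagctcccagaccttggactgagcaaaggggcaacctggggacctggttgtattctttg
Stab1: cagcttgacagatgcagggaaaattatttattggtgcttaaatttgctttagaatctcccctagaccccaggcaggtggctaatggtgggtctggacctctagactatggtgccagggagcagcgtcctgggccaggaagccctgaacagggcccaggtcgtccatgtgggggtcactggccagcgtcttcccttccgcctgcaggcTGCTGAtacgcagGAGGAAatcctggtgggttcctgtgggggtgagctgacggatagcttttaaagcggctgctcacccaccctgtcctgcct
Folr2: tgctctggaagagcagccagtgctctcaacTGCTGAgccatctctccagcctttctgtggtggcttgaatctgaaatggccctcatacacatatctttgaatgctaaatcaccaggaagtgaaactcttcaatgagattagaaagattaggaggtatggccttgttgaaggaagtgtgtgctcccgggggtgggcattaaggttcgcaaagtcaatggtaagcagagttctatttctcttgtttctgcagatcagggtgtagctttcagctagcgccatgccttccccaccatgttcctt

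Windows were found for 8 of the 10 members, 9 windows in all because Folr2 has a second start. The PU.1 core was in 3 of the 9 windows (those of Mrc1, Stab1 and Axl) and in 28.3% of all 32851 windows of this length. In Mrc1 it stood 3 times, from bases -180, -167 and -35 counted from the start of transcription. The MAF element was in 5 of the 9 windows (Stab1, both of Folr2, Cd36 and Timd4), against 19.5% of all windows. In Stab1 both motifs lay close to the start, at -43 and -30. The STAT motif, TTCNNNGAA, was in 0 of the 9 windows and in 8.30% of all. No motif found shared a base with another. The window of Mertk, a gene also highest in cluster 1, held none of these motifs and is not shown. These matches describe letters and no binding was measured.

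Of the cells called, 5292 of 6115 were kept in the control library (24810009 UMIs, median 4170 per cell) and 4506 of 5536 in the NK cell-depleted library (23245982 UMIs, median 4893), and 5 barcodes occurred in both. NK-like cells numbered 563 and 2, which checks the depletion. Clusters were named from marker lists that held no member, and the members were left out of the clustering. In all, 9 clusters were monocyte/macrophage-like, each with 4 to 11 of that list's markers among its 50 leading genes, and they held 3078 control and 2981 NK cell-depleted cells, with medians of 4756.5 and 5339 UMIs. Their makeup differed between the libraries. Cluster 1, resident macrophage-like (led by Ccl8, Gas6 and Cbr2), was 8.43% of control cells (446) and 16% of NK cell-depleted cells (720). Cluster 3, macrophage-like (Pf4, Ms4a7 and Itga9), was 11.5% and 6.48%, cluster 2 (Gpnmb, Mmp13 and Lhfpl2) 12.6% and 8.19%, and cluster 6 (Hes1, Havcr2 and Mmp14) 9.11% and 6.10%. Clusters 7 (Gm9733, Ly6c2 and Vcan) and 12 (Cd177, Chil3 and Hp) were classical monocyte-like, cluster 8 was led by Ace, Chil3 and Ldlrad3, and clusters 13 and 14 both by Retnla and Lyz1. Cluster 5 (led by Dcstamp, AA467197 and Cdh1; 539 and 284 cells) carried antigen-presentation genes, met no class name and was kept apart. Dendritic cells formed cluster 10a (cDC2-like), 10b (cDC1-like), 10c (pDC-like) and 16 (migratory DC-like).

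For 8 of the 10 genes at least 74.5% of UMIs lay in monocyte/macrophage-like cells in both libraries. The share was 99.6% in both libraries for Lyve1, 98.1% in control and 98.7% in NK cell-depleted for Folr2, and 93.7% and 95.4% for Stab1. For Mertk it was 93.7% and 96.4%, for Msr1 88.0% and 91.6%, for Mrc1 84.4% and 88.9%, for Cd36 79.1% and 86.1%, and for Cd163 74.5% and 83.0%. Axl was spread more widely, with 59.1% and 68.5% there, 36.2% and 22.1% in cluster 5, and 0.904% and 5.01% in the few melanoma-like cells. Timd4 had only 19 and 33 UMIs in all, of which 2 and 19 lay in the monocyte/macrophage-like class. When cells were named one by one from markers, which left 2670 cells in the class, the shares of those 8 genes lay between 40.1% and 67.7%. Without the upper limits on cells Axl had 61.8% and 38.1% there, so its order between the libraries turned. These shares follow the number of cells of each kind as well as the level per cell, and the libraries differed in the first.

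**Figure D1:**
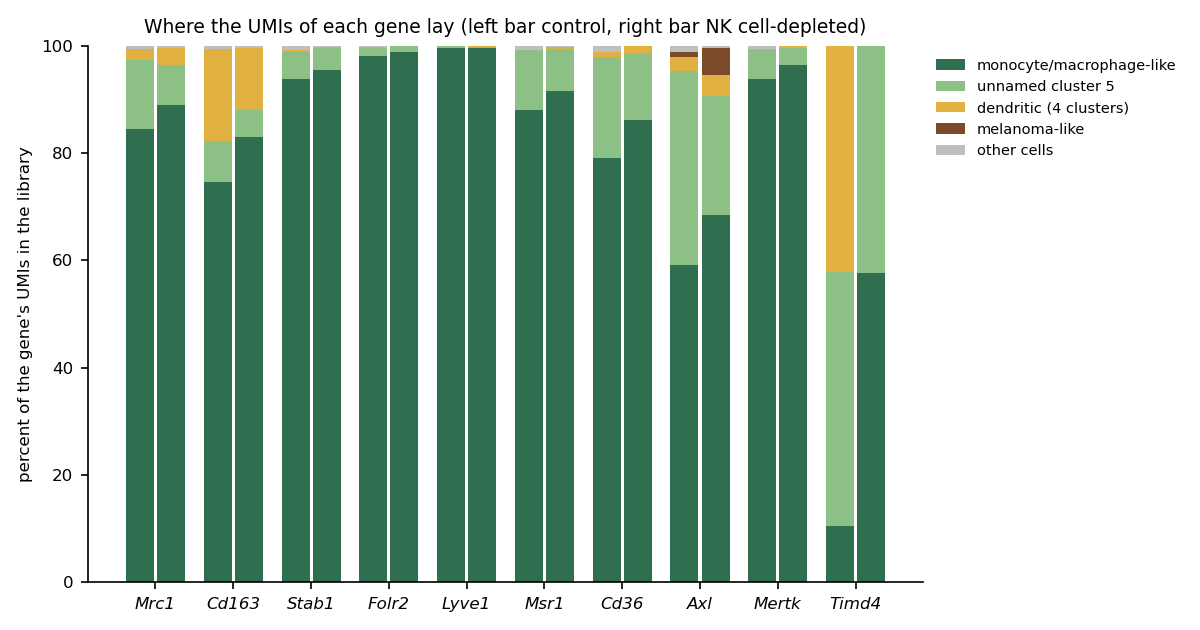
Share of each gene's UMIs (percent of the gene's UMIs in that library, linear axis from 0) by kind of cell, with the control library as the left bar and the NK cell-depleted library as the right bar of each pair. Lyve1 and Folr2 were almost wholly monocyte/macrophage-like, Axl had 36.2% and 22.1% in unnamed cluster 5, and Cd163 had 17.2% and 11.7% in dendritic cells.

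Mrc1 (ENSMUSG00000026712; chr2:14229392-14332057, plus strand) was the most widely detected member. Levels are given in CPM, the per-million share of all UMIs of the cells in question, with the exact 95% Poisson interval. In cluster 1 its level was 1667 (1621 to 1714) in control and 1803 (1767 to 1839) in NK cell-depleted cells, the highest of 14 myeloid clusters in both libraries. Cluster 3 had 1165 and 1190 and cluster 14 had 896 and 1329 (794 to 1007 and 1164 to 1512), so that cluster 3 was second in control and overlapped cluster 14 in the NK cell-depleted library, whereas cluster 2 had 381 and 376 and cluster 8 only 24.7 and 70.4. In cDC2-like cells the level was 410 and 429, close to that of cluster 2, and in cDC1-like cells it was 3.90 and 15.7. After each cell was thinned to 2000 UMIs, 89.6% (exact binomial interval 86.4 to 92.3) and 88.3% (85.7 to 90.6) of cells of cluster 1 held a UMI of Mrc1, against 4.49% and 6.99% of T-like cells, which should lack it. Before thinning these shares were 98.0% and 97.9% in cluster 1 and 4.53% and 9.95% in T-like cells, whose median depths were 2078 and 2327 UMIs. The level of Mrc1 in T-like cells was 22.4 (12.2 to 37.6) and 41.5 (26.3 to 62.3), and these intervals overlapped those of cluster 8 (14.6 to 39.0 and 58.9 to 83.5) in both libraries. Whether the UMIs in T-like cells came from free RNA or from doublets was not tested.

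Stab1 (ENSMUSG00000042286; chr14:31139013-31168641, minus strand) had its highest level in cluster 3, with 366 (347 to 384) in control and 357 (333 to 382) in NK cell-depleted cells. Cluster 1 came next with 212 and 189, and cluster 2 had 149 and 154. Classical monocyte-like cluster 7 had 5.36 and 18.1, and Stab1 was at most 15.6 in any dendritic cluster. The order of clusters 3 and 1 did not overlap in either library, while cluster 1 overlapped cluster 6 (165) in the NK cell-depleted library.

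Folr2 (ENSMUSG00000032725; chr7:101839988-101857194, minus strand) was highest in cluster 1, at 404 (381 to 427) and 256 (242 to 270), followed by cluster 3 at 209 and 203, cluster 14 at 131 and 115, and cluster 2 at 100 and 88.8. Outside these 4 clusters it was at most 34.6. Clusters 1, 3, 14 and 2 kept this order in both libraries, but clusters 14 and 2 overlapped in their counting intervals.

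Lyve1 (ENSMUSG00000030787; chr7:110850607-110863239, minus strand), a hyaluronan receptor also known from lymphatic endothelium, was the most restricted. Of its 235 control UMIs 220 lay in cluster 1, and of its 485 NK cell-depleted UMIs 437 did, at levels of 73.9 (64.5 to 84.4) and 81.4 (74.0 to 89.4). Only 49 of 446 and 80 of 720 cells of cluster 1 held one. The 5 cells with the most UMIs gave 32.3% and 25.6% of the cluster's Lyve1 UMIs, so the level rests on few cells. In the 54 and 91 monocyte/macrophage-like cells with a Lyve1 UMI, the 9 endothelial markers summed to 2 and 6 UMIs, and Pecam1, Cldn5, Emcn and Tek were at 0 in both libraries.

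Cd163 (ENSMUSG00000008845; chr6:124304656-124330527, plus strand) was low, with 157 and 265 UMIs in all. Its level was 22.2 (17.1 to 28.2) and 30.7 (26.2 to 35.8) in cluster 1, 21.1 and 21.8 in cluster 13, and 28.5 (18.2 to 42.3) and 21.8 (14.8 to 30.9) in cDC2-like cells. The intervals of these 3 clusters overlapped in both libraries, and no other cluster with more than 3 UMIs reached 6. In T-like cells Cd163 was at 0 UMIs in both libraries.

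Msr1 (ENSMUSG00000025044; chr8:39581685-39642673, minus strand) was found across the class. Cluster 3 had 609 (586 to 633) and 724 (689 to 760), clusters 2 and 6 had 492 and 500 and 449 and 587, and classical monocyte-like cluster 7 had 289 and 321. Cluster 1, the highest for Mrc1 and Folr2, had 194 and 248 of Msr1, overlapping cluster 8 (221 and 236) and above cluster 13 alone. Cluster 13 lay below all other monocyte/macrophage-like clusters at 17.3 in both libraries, near the dendritic clusters (at most 14.1).

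Cd36 (ENSMUSG00000002944; chr5:17781690-17888801, minus strand), which carries long-chain fatty acids and oxidised lipoproteins into cells, was highest in cluster 2, at 480 (453 to 508) and 568 (530 to 608). Clusters 14 (332 and 401) and 3 (281 and 370) followed. Cluster 6, which shares high Msr1 with clusters 2 and 3, had only 20.2 and 25. Among dendritic cells Cd36 was seen at 74.1 (44.6 to 116) and 120 (88.1 to 160) in cDC1-like cells, the 19 and 46 UMIs of 32 and 50 cells, and at 8.30 and 2.81 in cDC2-like cells. The cDC1-like level was beyond that of T-like cells, which held 1 and 0 UMIs.

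Axl (ENSMUSG00000002602; chr7:25757273-25788705, minus strand) followed another order. Cluster 5 had 337 (320 to 354) and 283 (263 to 305), cluster 6 had 323 and 200 (overlapping cluster 5 in control alone), and cluster 2, the highest for Cd36, had the lowest level of the class at 40.9 and 18.3. Migratory DC-like cells held 138 (103 to 180) and 157 (114 to 210), cDC2-like cells 60.5 and 52.0, and cDC1-like cells 0 and 1 UMI. Melanoma-like cells within the limits had 237 (167 to 327) and 512 (435 to 599), whereas the other members had at most 32.8 there. These were 57 and 69 cells with medians of 1670 and 2034 UMIs. When cells were clustered without upper limits, only 5 and 22 of the melanoma-like cells lay within the limits. Axl was at 351 (200 to 569) and 575 (479 to 684) in them, and Cd36 at 65.7 (3 UMIs) and 0. T-like cells had 24.0 and 16.2.

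Mertk (ENSMUSG00000014361; chr2:128698956-128802894, plus strand) was highest in cluster 1 at 96.8 (85.9 to 109) and 77.7 (70.4 to 85.5), then in cluster 3 at 73.7 and 67.5. The intervals of clusters 1 and 3 were apart in control and overlapped in NK cell-depleted cells. Cluster 5, the highest for its relative Axl, had 11.8 and 11.1, and the 4 dendritic clusters held 1 and 3 UMIs together.

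Timd4 (ENSMUSG00000055546; chr11:46810800-46844332, plus strand) was near the limit of detection. In cluster 1 it had 0 UMIs in 446 control cells and 18 UMIs in 12 of 720 NK cell-depleted cells, a level of 3.35 (1.99 to 5.30). Against the 3 UMIs that a count of 0 allows in the control library, that is at least 3.33-fold lower in control at the NK cell-depleted point value, and the exact interval of the ratio reached up to 0.410-fold. Cluster 5 held 9 UMIs in 5 cells and 14 UMIs in 6 cells. Migratory DC-like cells held 5 and 0 UMIs and cDC1-like cells 3 and 0, too few to compare.

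**Figure D2:**
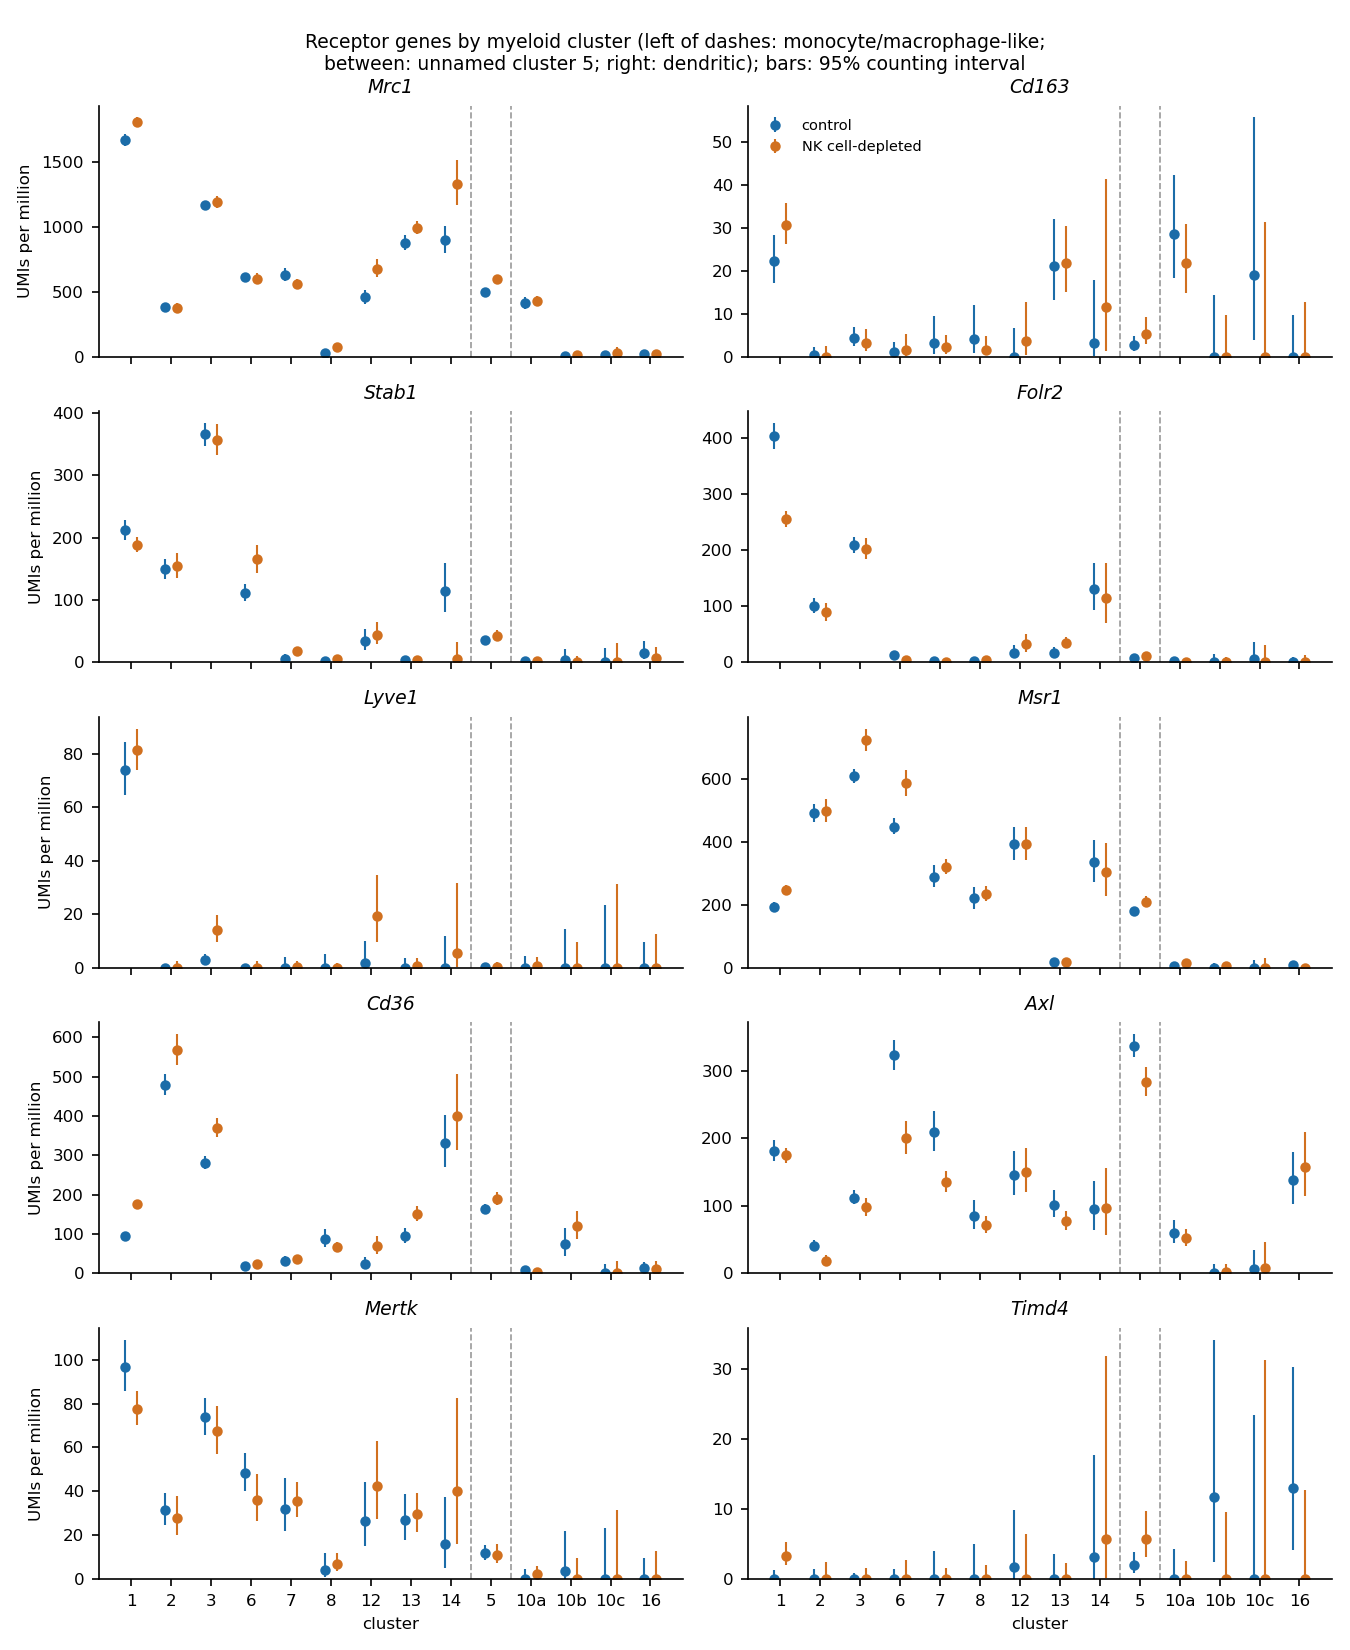
Level of each gene (CPM, linear axes from 0 that differ between genes) in the 9 monocyte/macrophage-like clusters, unnamed cluster 5 and the 4 dendritic clusters, with the control library in blue and the NK cell-depleted library in orange. Points are sums over all cells of a cluster and bars are exact 95% Poisson intervals. Lyve1 stood almost alone in cluster 1, Stab1 and Msr1 peaked in cluster 3, Cd36 in cluster 2 and Axl in clusters 5 and 6.

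Cells of clusters 3 and 1 held the most members. After thinning to 2000 UMIs, the mean number of the 10 genes with a UMI was 2.62 and 2.72 per cell in cluster 3 and 2.51 and 2.46 in cluster 1, against 1.25 and 1.28 in cluster 7, 0.53 and 0.65 in cluster 8 and 0.58 and 0.56 in cDC2-like cells. At least 3 members were seen in 53.0% and 54.5% of cells of cluster 3 and in 12.8% and 15.1% of cluster 5. T-like cells had a mean of 0.08 and 0.09.

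Members also met within cells. Each of the 36 control and 50 NK cell-depleted thinned cells with Lyve1 held Mrc1 (100%, exact binomial interval from 90.3 and 92.9), against 57.2% and 55.4% of cells without Lyve1. Folr2 was in 66.7% (49.0 to 81.4) and 82.0% (68.6 to 91.4) of them, against 15.9% and 10.6%. Much of this contrast lies between clusters, so it was repeated in cluster 1 alone. There the contrast of Mrc1 was small, with 100% of cells with Lyve1 in both libraries against 88.8% and 87.5% of the others. Folr2 was found there in 67.6% and 80.4% of cells with Lyve1, against 38.9% and 22.6% of the others. Stab1 was in 41.2% (34.0 to 48.7) and 44.4% (37.2 to 51.8) of cells of cluster 1 with Folr2, against 12.3% and 16.3% of those without. Axl went the other way in the same cells, at 22.5% (16.7 to 29.3) with Folr2 and 31.4% without in control, and at 15.9% (11.0 to 21.9) and 33.5% in NK cell-depleted. In cluster 3 the contrast of Stab1 was smaller, with 46.5% against 40.3% in control and 55.0% against 41.0% in NK cell-depleted cells, and the control interval (38.8 to 54.3) held the value of cells without Folr2. Cd163 was in 6.59% and 7.94% of cells of cluster 1 with Folr2, and in 0.766% and 1.70% of those without. Cells of 1 library are not replicates, so these are descriptions of 2 libraries.

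**Figure D3:**
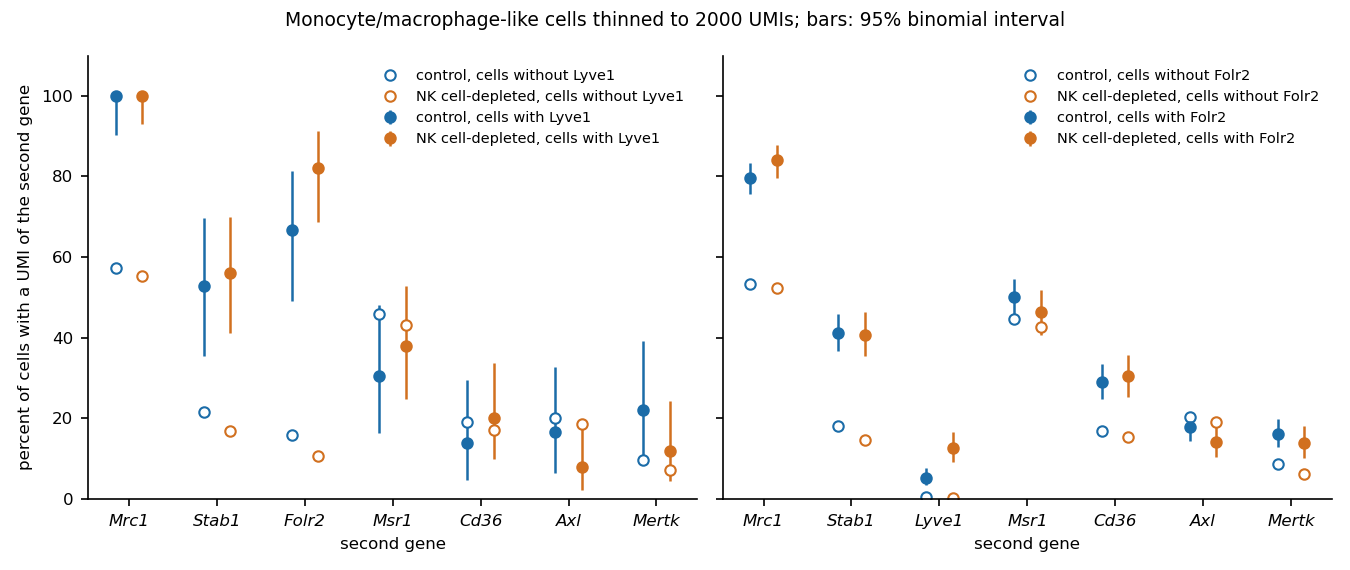
Percent of monocyte/macrophage-like cells, each thinned to 2000 UMIs, with a UMI of a second gene (y axis, linear from 0), in cells with a UMI of Lyve1 (left) or Folr2 (right) as filled points with exact 95% binomial intervals and in cells without as open points. Blue is control and orange NK cell-depleted. Mrc1 was in 100% of cells with Lyve1, and Folr2 in 66.7% and 82.0%, far above the open points, while the intervals of Msr1 and Cd36 in cells with Lyve1 held the open points.

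The genes whose levels over the 14 myeloid clusters were most like each member's were listed by Pearson's r of log2(CPM + 10), both libraries summed. These r describe 14 clusters of the same 2 libraries. Stab1 was most like Xylt2 (0.979), Ms4a7 (0.974) and Snx24 (0.963), Msr1 like Aprt (0.968), Dusp6 (0.967) and Itgb5 (0.957), and Lyve1 like Cp (0.965), Npl (0.939) and Reps2 (0.932). For Mrc1 they were Dok2 (0.958), App (0.939) and Tspan32 (0.934), for Mertk Glmp (0.950), Camk1 (0.942) and C5ar1 (0.940). Folr2 was most like Igf1 (0.936), Pdgfc (0.933) and Gas6 (0.925), the last of which encodes the bridging ligand of AXL and MERTK. Cd36 was most like Ube2g1 (0.936), Gpt2 (0.923) and Nat9 (0.905), Axl like Rasgrp1 (0.920), Sulf2 (0.866) and Pira2 (0.865), and Cd163 like Clec10a (0.853) and Pepd (0.822). Timd4, with 52 UMIs, was below the 200 UMIs required. Among the members themselves Mrc1 and Mertk (0.84) were the most alike, then Stab1 with Folr2 and with Mertk (0.82 each), and Cd36 and Axl were hardly alike (0.12).

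The comparison of hosts asks how these genes differed between tumors with and without NK cells. In the summed monocyte/macrophage-like cells Lyve1 had 234 control and 483 NK cell-depleted UMIs, or 14.8 and 28.5 CPM, which was 0.519-fold in control (exact conditional binomial interval 0.442 to 0.608). Cd163 had 7.38 and 13 CPM, 0.569-fold (0.451 to 0.716). With every cell at the same weight the log2 ratio was -0.81 (-1.49 to -0.14) for Lyve1 and -0.68 (-1.32 to -0.05) for Cd163. Those 2 intervals follow the spread between cells and are wider than the counting intervals, which treat UMIs as independent. Timd4 had 2 and 19 UMIs, 0.113-fold (0.0127 to 0.467), a call lost when cells were thinned or weighted alike. A gene was called when it had at least 20 UMIs, differed at least 1.5-fold and its interval excluded 1. By that rule 3 of the 10 members were lower in control, against 3.01% of the 11598 genes tested, and 0 were higher, against 6.25%. The other 7 members differed less. Stab1 was 1.31-fold (1.24 to 1.39), Folr2 1.26-fold (1.19 to 1.34), Axl 1.22-fold (1.15 to 1.29), and Msr1 and Mertk were 1.13-fold (1.09 to 1.17 and 1.03 to 1.25). Cd36 was 1.01-fold (0.960 to 1.06), and Mrc1, with 14446 and 17337 UMIs, 0.892-fold (0.872 to 0.912). The median log2 ratio was 0.09 over the members and -0.01 over all genes tested.

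Cluster 1 made up 8.43% and 16% of the libraries and held more UMIs of Lyve1 and of Cd163 than any other myeloid cluster. Its part in the result above was not tested. When each of the 9 clusters counted the same, the log2 ratio of Lyve1 was -0.63 (-0.92 to -0.34) in place of -0.95, that of Cd163 -0.35 (-0.84 to 0.15) in place of -0.81, and that of Timd4 -0.87 (-3.62 to 1.88) in place of -2.87, so Lyve1 alone stayed past the rule. Msr1 turned from 0.17 to -0.15 (-0.23 to -0.08), Cd36 moved from 0.01 to -0.37 (-0.49 to -0.25), and Mertk from 0.18 to -0.03 (-0.24 to 0.17). Stab1 fell from 0.39 to 0.08 (-0.02 to 0.19), an interval that holds 0. Folr2 went from 0.33 to 0.28 and Axl from 0.28 to 0.34. Mrc1 went from -0.16 to -0.18 (-0.23 to -0.13), still lower in control. Left without cluster 1, an alternative chosen after the data were seen, the class had Stab1 1.52-fold (1.42 to 1.63) and Folr2 1.60-fold (1.45 to 1.75) higher in control, 2 members called against 5.73% of genes tested, and Lyve1 0.274-fold (0.139 to 0.508, 14 and 46 UMIs), 1 called against 3.95%. Mrc1 then stood at 1.12-fold (1.08 to 1.15), on the other side of 1, and Timd4 at 2 and 1 UMIs. Cd163 then stood at 0.836-fold (0.559 to 1.25, 51 and 55 UMIs), no longer past the rule. Within cluster 1 itself Lyve1 was 73.9 and 81.4 CPM, intervals that overlapped.

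Within the clusters, Cd36 was lower in control in 9 of the 10 states (the 9 clusters and cluster 5), beyond counting error in 6 and past the rule in 3. In cluster 1 it had 94.1 and 176 CPM (280 and 946 UMIs), 0.534-fold (0.465 to 0.611), against 3.53% of genes called lower there. The share of thinned cells with Cd36 in cluster 1 was 11.5% (8.69 to 14.9) and 19.9% (17.1 to 23.0). In cluster 12 it had 24.9 and 70.6 CPM on only 14 and 40 UMIs, 0.353-fold (0.178 to 0.663; 4.44% of genes). In cluster 13 it had 94.1 and 151 CPM (98 and 236 UMIs), 0.622-fold (0.487 to 0.791; 4.93%). The exception was cluster 8, at 87.8 and 68.3.

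Axl was higher in control by the rule in 3 states and lower in 0. These were cluster 2 (40.9 and 18.3 CPM, 2.23-fold, 1.45 to 3.55; 6.13% of genes called higher), cluster 6 (323 and 200 CPM, 1.62-fold, 1.41 to 1.86; 4.11%) and classical monocyte-like cluster 7 (209 and 135 CPM, 1.54-fold, 1.28 to 1.85; 3.24%). The intervals of the ratio held 1 in cluster 1 (182 and 175), cluster 12 (146 and 150) and cluster 14 (95.6 and 97.4). In cluster 6 thinned cells with Axl were 37.7% (33.3 to 42.2) and 26.7% (21.6 to 32.4).

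Folr2 differed in both directions. It was 1.58-fold higher (1.46 to 1.71) in control in cluster 1, where 4.12% of genes were called higher, with 41.1% (36.5 to 45.8) and 26.3% (23.1 to 29.7) of thinned cells holding it. In cluster 6 it was 3.0-fold higher (1.24 to 8.73) on 34 and 6 UMIs. In cluster 13 it was 0.50-fold (0.276 to 0.865) on 18 and 54 UMIs, of which 5 cells gave 83.3% and 61.1%. Cluster 3 showed 209 and 203 CPM.

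Stab1 was 20-fold higher in cluster 14 (3.37 to 813; 5.99% of genes called higher) on 36 and 1 UMIs, in a cluster of 179 and 96 cells with medians of 1355 and 1584 UMIs. It was 0.296-fold (0.0914 to 0.747; 4.74% called lower) in cluster 7 on 5 and 42 UMIs. In cluster 3, its main site, it was 1.02-fold (0.940 to 1.12), and in cluster 6 it was 0.675-fold (0.565 to 0.808), short of the rule. Both calls rest on clusters that hold few of its UMIs.

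Msr1 was not called in any of the 10 states, though it was lower in control beyond counting error in 4. These were clusters 1 (0.780-fold, 0.707 to 0.861), 3 (0.841-fold, 0.791 to 0.896), 6 (0.766-fold, 0.699 to 0.839) and 5 (180 and 210 CPM). Mrc1 was lower in control beyond counting error in 6 of the 10 states and higher in 1. It was called in cluster 8 alone (24.7 and 70.4 CPM, 0.351-fold, 0.202 to 0.577; 4.42% of genes called lower), where its level overlapped that of T-like cells. Neutrophil-like cells, which should lack it, had 26.2 and 61.2 CPM. Lyve1 was called lower in cluster 3 (13 and 32 UMIs, 0.219-fold, 0.105 to 0.429; 4.25%), all of them in 4 and 5 cells. Timd4 was called lower in cluster 5 (2.04 and 5.77 CPM, 0.354-fold, 0.135 to 0.879; 4.36%) on 9 and 14 UMIs. Mertk, at 96.8 and 77.7 CPM in cluster 1, was 1.25-fold (1.07 to 1.45) there and was called in none of the states. Whether each cluster held cells of the same kind in both libraries was not tested. The medians of cluster 1, for one, were 6409.5 and 7227.5 UMIs.

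**Figure D4:**
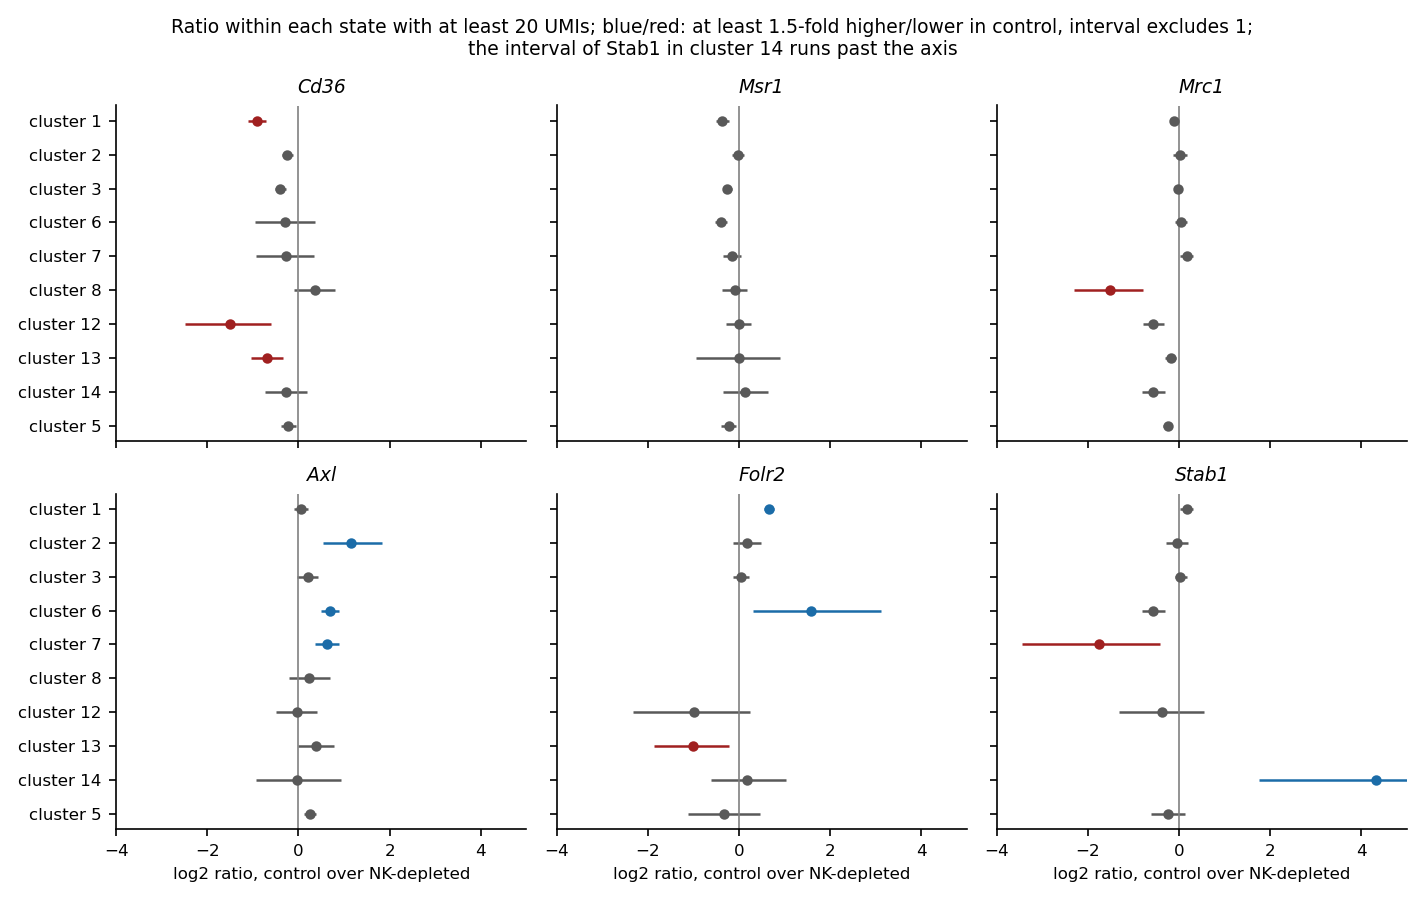
Log2 ratios of Cd36, Msr1, Mrc1, Axl, Folr2 and Stab1, control over NK cell-depleted, with 95% counting intervals. Each state with at least 20 UMIs of the gene is shown. Blue and red mark at least 1.5-fold higher or lower in control with an interval that excludes 1, and the interval of Stab1 in cluster 14 runs past the axis. Cd36 lay left of 0 in all but cluster 8, beyond counting error in 6 states, and Axl lay right of 0 or within counting error of it.

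In dendritic cells no interval of a ratio named here excluded 1. In cDC2-like cells (157 and 226 cells) Mrc1 was 0.956-fold (0.835 to 1.09), Cd163 1.31-fold (0.734 to 2.30) and Axl 1.16-fold (0.798 to 1.68). Axl in migratory DC-like cells was 0.879-fold (0.580 to 1.34), and Cd36 in cDC1-like cells 0.616-fold (0.341 to 1.07). These intervals allow differences of 1.5-fold for all but Mrc1.

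A wider list of 58 other genes of uptake and clearance gave the setting. Of these 41 had at least 20 UMIs in the class, 2 were called higher in control, 5 lower, and the median log2 ratio was -0.05, beside 6.25% higher and 3.01% lower of all genes tested. The count of higher genes is near that background, and the list is described by its counts alone. The 2 higher were Cxcl16, a chemokine that is also a receptor for oxidised lipoprotein, at 244 and 139 CPM (1.76-fold, 1.67 to 1.85), and Mfge8, a bridge to phosphatidylserine, at 9.85 and 6.43 (1.53-fold, 1.19 to 1.98). Among the lower were Cd5l, a secreted scavenger protein of resident macrophages, at 21.3 and 48.8 CPM (0.438-fold, 0.384 to 0.497), and Cd209f and Cd209d, lectins, at 0.275-fold (0.213 to 0.352) and 0.531-fold (0.378 to 0.737). Pparg, a lipid-sensing nuclear receptor, was 0.631-fold (0.532 to 0.747). The fifth was Cd209b on 4 and 16 UMIs. When the 9 clusters counted alike, Cd5l (log2 ratio -0.84) and Cd209f (-1.27) alone stayed past 1.5-fold, while Cxcl16 (0.25), Mfge8 (0.50), Pparg (-0.34) and Cd209b (-0.11) fell short of it and Cd209d (0.18) changed sign. Cd5l, Cd209f and Pparg had their highest level in cluster 1, the cluster that was smaller in control, and Cd209d and Cd209f were among the markers that named it. Of the 10 scavenger receptors measured 1 was higher and 1 lower, of the 4 lectins and matrix receptors 3 were lower, and of the 8 receptors for dead cells 0 were called. Of 6 ligands 1 was higher, and of 13 genes of engulfment and lipid efflux 1 was lower. These groups are small, and 1 called gene is a large share of each.

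Transcripts on the marker lists of other cells were present in the class. The list that differed most between hosts in CPM was that of platelets, whose 9 markers summed to 2467 CPM in control and 736 in NK cell-depleted cells (6 higher and 0 lower in control; 1294 and 595 in cluster 1). That list holds Pf4, which is also on the monocyte/macrophage list and leads cluster 3. The migratory DC markers summed to 454 and 306, those of cDC1 to 880 and 933, cDC2 993 and 1043, pDC 643 and 576, B cells 131 and 163, melanoma 72.8 and 64.4, and T cells 36.9 and 26.6. The 12 NK markers summed to 38.5 CPM in control and 18.7 in NK cell-depleted monocyte/macrophage-like cells (11 higher and 1 lower in control). In the latter 6 of them were at 0. Klrk1, the 1 marker lower in control, gave 270 of the list's 610 control UMIs and 297 of its 317 NK cell-depleted UMIs. The NK cell-depleted sum was thus almost wholly Klrk1. Gzma, the most abundant of the other 11 in control, had 125 and 0 UMIs. The 12 neutrophil markers summed to 404 and 546, the 9 fibroblast markers to 87.8 and 53.1, and the 9 endothelial markers to 46.9 and 29.4, with Cldn5, Emcn and Tek at 0 in both. The part of these in the members' values was not tested. Doublets could not be called, since Scrublet marked 0 and 3 cells.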

How the data were processed

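Deposited matrices of UMI counts, 1 per library, were used as the authors made them with Cell Ranger (3.0.2 per the file headers, while the study's methods name another release) on mm10, from a 3′ kit. The authors' count matrix holds raw counts per gene and cell. A deposited table of log2 values of the same cells was not used. The limits on cells are those of the study's methods. Members and lists were chosen with earlier results of these data known.

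Log-normalized values of 2000 variable genes (without the members, other uptake genes and interferon genes) gave 15 principal components, a 20-neighbor graph and Leiden clusters at resolution 1 (scanpy 1.11.5, leidenalg 0.10.2, igraph 0.11.9). Cluster 10 was divided at resolution 0.3 after the clusters were seen. A cluster took a class name with at least 3 markers of the list among its 50 leading genes (fold with 5 CPM added, seen in at least 10% of cells) and fewer than 2 of another list among the first 10, a rule set after the clusters were seen. These names were rebuilt here, so they may differ from those of the study. Counts were summed per library and class or cluster. Levels carry exact Poisson, shares exact Clopper-Pearson and ratios exact conditional binomial intervals at 95% confidence. UMIs count molecules, and intervals cover counting error only, except where the spread between cells is named. With 1 library per group no test was made. The ratio and its call were tested on simulated Poisson counts, the same assumption that the intervals make. UMIs gathered in few cells, as for Lyve1 and Timd4, were not simulated, so this does not check their calls.

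Named genes were all members, listed uptake genes past 1.5-fold with at least 100 UMIs, the 3 genes most like each member and the 3 leading genes of clusters. 1 gene that the rule names is not reported here. Cd209b falls outside this rule and was chosen after its values were seen. Gene coordinates are those of the GENCODE annotation of GRCm38. Alternatives covered scaling, weights, depth, filters, doublets, clustering and free RNA.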

Additional observations from a re-analysis of the deposited data

Results flagged for a closer look

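For Folr2 and Stab1 the hosts differed in opposite directions in different clusters, and the difference between states was not tested. Folr2 was 1.58-fold and 3.0-fold higher in control in clusters 1 and 6 and 0.50-fold in cluster 13. Stab1 was 20-fold higher in cluster 14 and 0.296-fold in cluster 7.

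Melanoma-like cells with more UMIs or genes than the limits allow, left out of the comparisons above, held Axl at 456 CPM (436 to 477; 118 cells) in control and 554 CPM (538 to 571; 244 cells) in the NK cell-depleted library, with Mrc1 at 19.6 and 16.2, Mertk at 4.42 and 2.70 and Cd36 at 1.86 and 1.16. These cells include added parental melanoma cells, which cannot be told apart here from cells of the tumor.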

How the results depend on the processing

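No paired analysis was possible because each group had 1 library, and no library could be left out. Members called lower in control numbered 3 in the report's setting. They were 3 under 7 alternatives and 2 (Cd163 and Lyve1) under 6, where Timd4 had under 20 UMIs or an interval that held 1. They were 1 with every cluster at the same weight (Lyve1), 1 at 2-fold (Timd4), and 1 without cluster 1 (Lyve1), where 2 were higher. Members called higher were 0 under all others. Timd4 turned to 0.59 (-3.41 to 6.73) without cluster 1.

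The median member log2 ratio of 0.09 became 0.16 with cells thinned to 2000 UMIs, -0.17 with every cluster at the same weight, 0.17 without the 5 cells with the most UMIs of each gene, 0.01 with cluster 5 counted, 0.18 without the shallow clusters 12 and 14, and 0.16 without cluster 1. The last 3 were added after seeing the data. At 2-fold 313 genes were higher and 87 lower, against 725 and 349. The causes were not tested. Cd163 ranged from -1.11 to -0.26, Lyve1 from -1.83 to -0.63 and Axl from 0.01 (all genes kept in the clustering) to 0.51, with 1 sign each. Called one by one, 2670 cells were of the class in place of 6059 and 3285 cells got no name, and the share of Axl UMIs in the class was 30.5% and 36.5%. Counts limit Timd4 and Cd163 most.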
